A study of Mus musculus with 12 samples.

Results

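The transcripts described here are those of 7 genes of cholesterol synthesis, namely Hmgcs1, Idi1, Fdft1, Sqle, Lss, Cyp51 and Insig1, out of 55348 genes counted in each library. They were chosen by symbol, with earlier results of these data known. All 7 of 7 passed the filter on low counts into the 19052 genes tested. Cholesterol is built from acetyl-CoA through mevalonate, isoprenoid units, squalene and lanosterol. The transcription factor SREBP-2 switches on most enzymes of this route when the sterol content of the endoplasmic reticulum is low, and Insig1 holds SREBP-2 and its escort Scap there when sterols are plentiful. In the cochlea, cholesterol is a component of hair cell membranes and of the myelin around auditory nerve fibres.

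The libraries came from poly-A RNA of the organ of Corti, the hearing epithelium with its hair cells, taken from mice at postnatal day 21. There were 4 genotypes with 3 libraries each, 12 in all. Clrn1-/- mice carried a constitutive deletion of a loxP-flanked Clrn1 exon made with PGK-cre, Clrn2-/- mice were homozygous for the clarinet allele, in which a tryptophan codon of Clrn2 is replaced by a stop, and Clrn1-/-Clrn2-/- mice carried both. Both alleles are constitutive and not restricted to hair cells. Wild-type mice came from breedings of their own and were not littermates, so breeding and genotype cannot be told apart in any comparison with wild-type. The strain of these mice is not given in the sources used here, and although mice of separate litters were used for each genotype, the methods do not say which mice or litters, or how many, made up each library, so p-values measure the spread between libraries, which may be technical.

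Libraries held 30008679 to 41049302 counts assigned to genes. Clrn1 was at 23.8 to 28.6 CPM (counts scaled to the normalized library size) in wild-type and at 1.77 to 3.04 CPM in the Clrn1-/- and double mutant libraries. Clrn2 was at 1.89 to 3.24 CPM in wild-type and at 0.854 to 1.38 CPM in all 9 mutant libraries, those of Clrn1-/- included, where the gene is intact. The tissue label was checked against marker genes. Those of hair cells summed to 334 to 529 CPM and those of supporting cells to 1642 to 2167 CPM. Although the modiolus and the stria vascularis had been removed, neuron markers summed to 7694 to 12372 CPM, Schwann cell myelin markers to 22427 to 24708 CPM and stria vascularis markers to 244 to 436 CPM. In such bulk tissue, fewer cells of a type and less RNA per cell cannot be told apart.

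In Clrn1-/-Clrn2-/- mice the genes were lower than in wild-type, by small amounts. The difference passed the adjusted p for 6 of 7, where 17.9% of all genes tested were lower, and was largest for Hmgcs1, at 25.9% less than wild-type. In the single mutants the difference passed for fewer of them, namely Cyp51 in Clrn1-/- mice, where 13.3% of all genes were lower, and Insig1, Lss and Sqle in Clrn2-/- mice, where 7.07% were. The 1 of 7 in Clrn1-/- mice is near the share of all genes. No member reached the 1.5-fold minimum in any comparison. Every fold change and adjusted p given is from edgeR's quasi-likelihood test on the 19052 genes, with Benjamini-Hochberg adjustment.

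The promoters of 5 of the 7 genes were available from RefSeq (build GRCm38.p6, 250 bases before to 50 bases after the transcript start), those of Hmgcs1, Idi1, Lss, Cyp51 and Insig1. The pair printed belongs to the member that was lowest in the double mutants relative to wild-type and to the one that was lowest in Clrn2-/- mice. Hmgcs1 lies at chr13:119690101-119690400 on the plus strand and Insig1 at chr5:28071162-28071461 on the plus strand. Capitals mark matches, on either strand, to the core of the sterol regulatory element (TCACNCCA), the CCAAT box (CCAAT), the GC box (GGGCGG) and the E-box (CACGTG).
Hmgcs1: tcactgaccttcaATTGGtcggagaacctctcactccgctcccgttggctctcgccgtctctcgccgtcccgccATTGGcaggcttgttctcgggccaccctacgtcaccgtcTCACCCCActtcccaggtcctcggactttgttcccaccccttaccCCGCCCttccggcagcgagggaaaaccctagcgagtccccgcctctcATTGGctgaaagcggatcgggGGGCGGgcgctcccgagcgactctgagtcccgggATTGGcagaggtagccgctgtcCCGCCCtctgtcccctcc
Insig1: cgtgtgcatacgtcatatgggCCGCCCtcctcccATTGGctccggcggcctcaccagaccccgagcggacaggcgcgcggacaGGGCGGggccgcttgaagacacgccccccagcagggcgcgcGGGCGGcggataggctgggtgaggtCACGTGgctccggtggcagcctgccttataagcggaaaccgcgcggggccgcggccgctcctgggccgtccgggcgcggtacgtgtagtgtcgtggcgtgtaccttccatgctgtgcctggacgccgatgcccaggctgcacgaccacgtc

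The Hmgcs1 promoter held 1 sterol regulatory element core, which began 137 bases before the start, together with 4 CCAAT boxes and 3 GC boxes. The Insig1 promoter held no match to the sterol element core, 1 CCAAT box, 3 GC boxes and 1 E-box that began 101 bases before the start. Each of the other 3 promoters, of Idi1, Lss and Cyp51, had at least 1 CCAAT box and at least 1 GC box, and neither of the other motifs. No matches to different motifs overlapped. Of 32851 mouse promoters of the same length, 4.36% held the sterol element core, 37.4% a CCAAT box, 35.7% a GC box and 7.15% an E-box. These are matches of letters and do not show that a factor was bound, nor does a missing match say anything of a factor.

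Expressed per kilobase of exon, which allows levels of different genes to be compared, Hmgcs1 was the most abundant member, with a mean of 101 FPKM over the 12 libraries. Insig1 followed at 32.4 FPKM, Cyp51 at 23.6, Fdft1 at 21.0, Sqle at 15.9, Idi1 at 6.03 and Lss at 5.02 FPKM. The merged exons of Lss are 10787 bases long in the annotation because of its many isoforms, which lowers its FPKM. Counts behind the values ranged from 573 for Idi1 to 19616 for Hmgcs1 in a library. Across the 12 libraries, the highest level was 1.52 times the lowest for Hmgcs1, 1.44 times for Insig1 and 1.11 times for Fdft1, the most even of the 7.

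**Figure D1:**
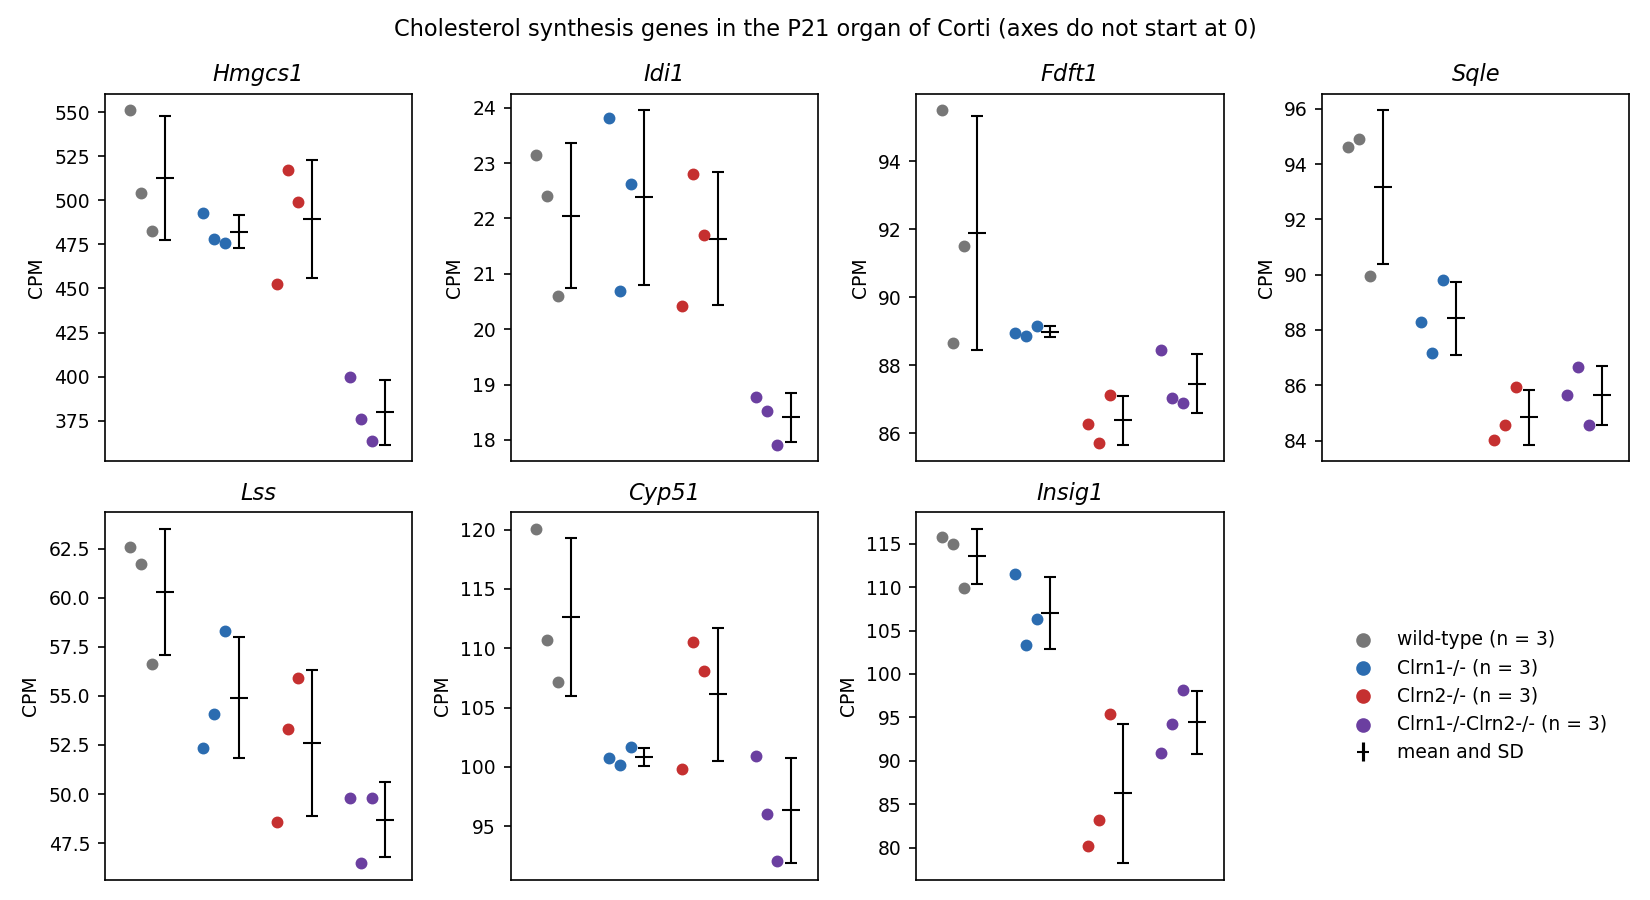
CPM of each member in every library (points) of the 4 genotypes, with the mean and SD of 3 libraries in black; the vertical axes do not start at 0. The 3 double mutant libraries lie below the 3 wild-type libraries in all 7 panels, and the gap is widest for Hmgcs1 (364 to 400 against 483 to 551 CPM).

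Hmgcs1 encodes the cytosolic synthase that forms HMG-CoA, an early intermediate of the route (ENSMUSG00000093930.2, GRCm38 chromosome 13 from 119690379 to 119708260, plus strand). The wild-type libraries were at 551, 504 and 483 CPM, and the double mutant libraries at 399.5, 376 and 364 CPM. Clrn1-/- libraries held 493, 478 and 476 CPM, and Clrn2-/- libraries 452, 517 and 499 CPM. Both single mutants overlapped with wild-type, while every double mutant library was below every other library. Means were 513 ± 35.02 CPM for wild-type and 379.7 ± 18.3 CPM for double mutants (SD, n = 3), so that Hmgcs1 fell with a log2 fold change of -0.43 (standard error 0.059, edgeR test, adjusted p = 2.72e-05). In order of level, wild-type, Clrn2-/- and Clrn1-/- did not pass between neighbours (edgeR test, adjusted p = 0.510 and 0.840), and the step from Clrn1-/- to the double mutants did (log2 fold change -0.34, edgeR test, adjusted p = 3.19e-04). Against Clrn2-/- the log2 fold change of the double mutants was -0.37 (edgeR test, adjusted p = 2.95e-04).

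Idi1, the isomerase that interconverts the isoprenoid building blocks, lies on chromosome 13 from 8885501 to 8892451 on the plus strand (ENSMUSG00000058258.14). Its level was 23.1, 22.4 and 20.6 CPM in wild-type libraries, 23.8, 20.7 and 22.6 CPM in Clrn1-/-, 20.4, 22.8 and 21.7 CPM in Clrn2-/- and 18.8, 18.5 and 17.9 CPM in the double mutants. The first 3 genotypes overlapped with each other and the double mutants stood below all of them. The log2 fold change of the double mutants was -0.26 against wild-type (standard error 0.068, edgeR test, adjusted p = 0.00667), -0.28 against Clrn1-/- (edgeR test, adjusted p = 0.00499) and -0.23 against Clrn2-/- (edgeR test, adjusted p = 0.0190). The last of these was no longer past the threshold without Clrn2-/- replicate 2 (edgeR test, adjusted p = 0.0705) or double mutant replicate 3 (edgeR test, adjusted p = 0.0564).

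Fdft1, squalene synthase, commits isoprenoids to sterols (ENSMUSG00000021273.10, chromosome 14 from 63145150 to 63179578, minus strand). Wild-type libraries were at 95.5, 88.6 and 91.5 CPM, Clrn1-/- at 89.0, 88.9 and 89.2 CPM, Clrn2-/- at 86.3, 85.7 and 87.1 CPM, and double mutants at 88.4, 87.0 and 86.9 CPM. The double mutant and Clrn2-/- libraries lay below those of wild-type, and Clrn1-/- libraries overlapped with them. Its log2 fold changes were -0.05 in Clrn1-/-, -0.09 in Clrn2-/- and -0.07 in the double mutants (standard error 0.037 for each), and none passed (edgeR test, adjusted p = 0.394, 0.126 and 0.148). Fdft1 shares 774 exon bases with Ctsb on the opposite strand, and 28.4% of the stranded counts on Fdft1 had the other orientation.

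Sqle, squalene epoxidase, a rate-limiting step of the later pathway, lies on chromosome 15 from 59315077 to 59331192 on the plus strand (ENSMUSG00000022351.14). It was at 94.6, 94.9 and 89.95 CPM in wild-type libraries, 88.3, 87.2 and 89.8 CPM in Clrn1-/-, 84.0, 84.6 and 85.9 CPM in Clrn2-/- and 85.7, 86.7 and 84.6 CPM in the double mutants. All 9 mutant libraries were below the wild-type ones, though the closest Clrn1-/- library by only a small step. The log2 fold change was -0.13 in Clrn2-/- (standard error 0.037, edgeR test, adjusted p = 0.0218) and -0.12 in the double mutants (standard error 0.037, edgeR test, adjusted p = 0.0157), against -0.08 in Clrn1-/- (edgeR test, adjusted p = 0.145). With library size alone in place of TMM, the double mutants had an adjusted p (edgeR) of 0.114 for Sqle, and with no filter on low counts 0.0511.

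Lss, which closes the ring to give lanosterol, lies on chromosome 10 from 76531588 to 76557138 on the plus strand (ENSMUSG00000033105.12). Wild-type libraries had 62.6, 61.7 and 56.6 CPM, Clrn1-/- 52.3, 54.1 and 58.3 CPM, Clrn2-/- 48.6, 53.3 and 55.9 CPM, and double mutants 49.8, 46.5 and 49.8 CPM. Double mutant and Clrn2-/- libraries were all below wild-type, and 1 Clrn1-/- library overlapped with it. From 60.3 ± 3.21 CPM in wild-type the level was lower by a log2 fold change of -0.31 in the double mutants (standard error 0.060, edgeR test, adjusted p = 7.25e-04) and of -0.20 in Clrn2-/- mice (edgeR test, adjusted p = 0.0371). No pair of neighbours in the order wild-type, Clrn1-/-, Clrn2-/-, double mutant passed (edgeR test, adjusted p = 0.109, 0.512 and 0.196), and the double mutants were lower than Clrn1-/- (log2 fold change -0.17, edgeR test, adjusted p = 0.0384). That call was lost without Clrn1-/- replicate 2 or 3 (edgeR test, adjusted p = 0.0556 and 0.137) and without double mutant replicate 1 or 2 (edgeR test, adjusted p = 0.0512 and 0.131).

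Cyp51, the lanosterol demethylase, lies on chromosome 5 from 4081145 to 4104746 on the minus strand (ENSMUSG00000001467.5). In wild-type it was at 120.1, 110.7 and 107 CPM, in Clrn1-/- at 100.7, 100.2 and 102 CPM, in Clrn2-/- at 99.8, 110.5 and 108 CPM and in the double mutants at 100.9, 96.0 and 92.1 CPM. Clrn1-/- and double mutant libraries were all below those of wild-type, and Clrn2-/- libraries overlapped with them. Its log2 fold change for double mutants was -0.23 (standard error 0.051, edgeR test, adjusted p = 0.00230) and -0.16 in Clrn1-/- (standard error 0.051, edgeR test, adjusted p = 0.0291). The direct comparison of the double mutants with Clrn2-/- gave -0.14 (edgeR test, adjusted p = 0.0523; 0.0376 by DESeq2 and 0.0238 with no filter on low counts), and that with Clrn1-/- gave -0.07 (edgeR test, adjusted p = 0.358). The comparison with Clrn2-/- also passed without any 1 of the wild-type or Clrn1-/- libraries, Clrn2-/- replicate 1 or double mutant replicate 1 (edgeR test, adjusted p = 0.0182 to 0.0491).

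Insig1, the sterol-regulated brake on SREBP-2 and itself one of its targets, lies on chromosome 5 from 28071363 to 28078662 on the plus strand (ENSMUSG00000045294.11). Wild-type libraries were at 116, 115 and 109.9 CPM, Clrn1-/- at 112, 103 and 106 CPM, Clrn2-/- at 80.2, 83.2 and 95.3 CPM, and double mutants at 90.9, 94.3 and 98.1 CPM. Clrn2-/- and double mutant libraries all lay below those of wild-type and Clrn1-/-, and overlapped with each other. The Clrn2-/- mean was 86.2 ± 8.02 CPM against 114 ± 3.17 CPM in wild-type (SD, n = 3). The log2 fold change was -0.40 in Clrn2-/- (standard error 0.057, edgeR test, adjusted p = 2.29e-04), -0.27 in the double mutants (standard error 0.057, edgeR test, adjusted p = 0.00155) and -0.09 in Clrn1-/- (edgeR test, adjusted p = 0.291). Tested directly, Insig1 was higher in Clrn1-/- than in Clrn2-/- mice by a log2 fold change of 0.31 (standard error 0.057, edgeR test, adjusted p = 0.00133), and the double mutants had a log2 fold change of -0.18 against Clrn1-/- (edgeR test, adjusted p = 0.0245). The second call was lost without Clrn1-/- replicate 1 (edgeR test, adjusted p = 0.0738) and without double mutant replicate 1 or 2 (edgeR test, adjusted p = 0.0793 and 0.0552). Between the double mutants and Clrn2-/- the log2 fold change was 0.13 (edgeR test, adjusted p = 0.102). It ranged from 0.08 to 0.20 with 1 library left out, and passed without Clrn2-/- replicate 3 (edgeR test, adjusted p = 0.00985).

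**Figure D2:**
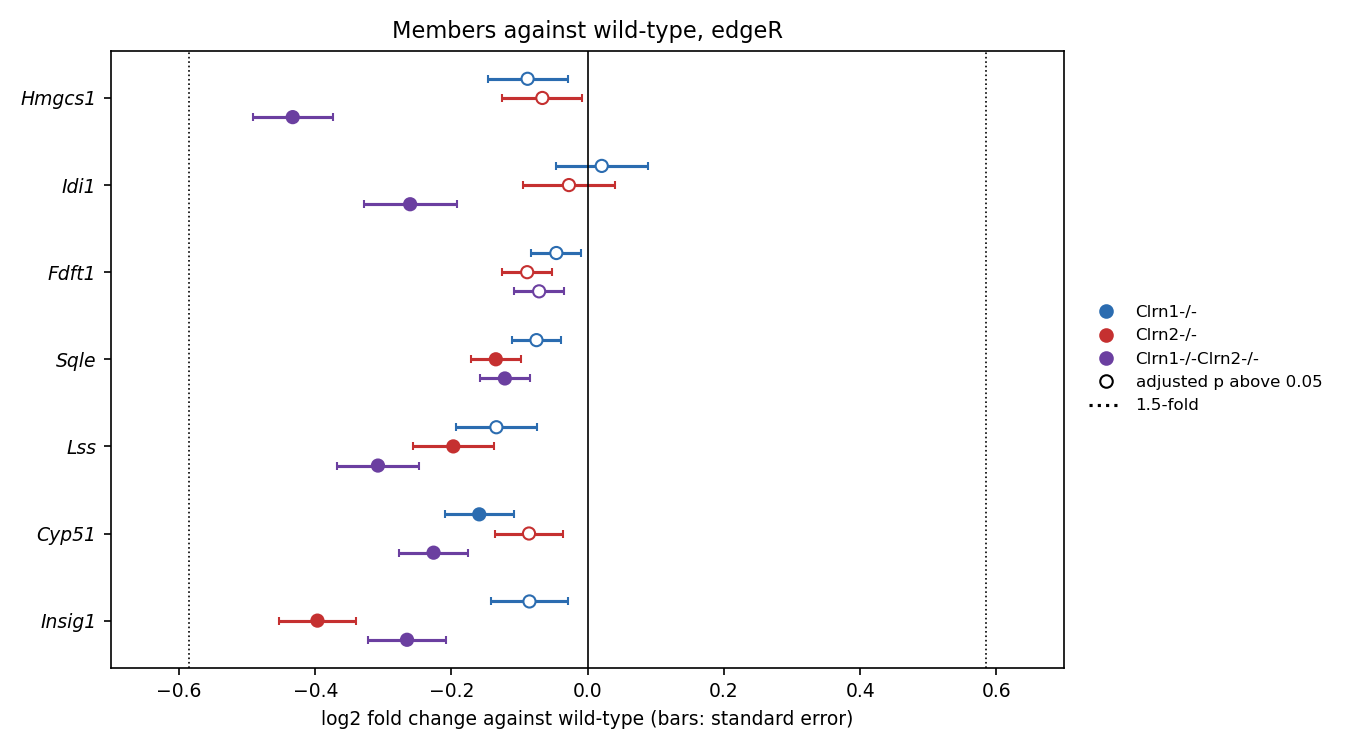
Log2 fold change of each member against wild-type with its standard error in the 3 mutant genotypes; filled points passed an adjusted p of 0.05, dotted lines mark 1.5-fold. No point reaches a dotted line, and the largest differences are those of Hmgcs1 in the double mutants (-0.43) and Insig1 in Clrn2-/- mice (-0.40).

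Under the rule that also asks for a 1.5-fold change, 0 of 7 members were called by edgeR in any comparison. Of all 19052 genes this rule called 7.22% in Clrn1-/-, 2.66% in Clrn2-/- and 9.9% in double mutants against wild-type, 4.73% between the single mutants, 7.23% and 5.1% in double mutants against Clrn1-/- and Clrn2-/-, and 5.5% for the interaction. DESeq2 and limma-voom likewise called 0 of 7 under this rule. At an unadjusted p under 0.05, edgeR counted 2 members in Clrn1-/-, 4 in Clrn2-/- and 6 in double mutants against wild-type, 1 between the single mutants, 4 in double mutants against each single mutant and 3 for the interaction. Of all genes, in either direction, 37.9% in Clrn1-/-, 27.6% in Clrn2-/- and 45.2% in double mutants against wild-type had such a p, 32.1% between the single mutants, 40% and 38% in double mutants against Clrn1-/- and Clrn2-/-, and 30.3% for the interaction.

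By adjusted p alone, 6 of 7 members were lower in the double mutants, where 17.9% of all genes were, and the median log2 fold change of the 7 was -0.26 against 0.001 for all genes tested. In Clrn2-/- mice 3 of 7 were lower (7.07% of all genes) with a median of -0.09, and in Clrn1-/- mice 1 of 7 (13.3% of all genes), also with a median of -0.09. The 3 comparisons share the wild-type libraries. The 7 genes were chosen with earlier results of these data known, so these contrasts with all genes are not independent support. All 3 mutant libraries lay below the 3 of wild-type for 7 of 7 members in the double mutants (23.2% of all genes), for 4 in Clrn2-/- (14.4% of all genes) and for 2 in Clrn1-/- (19.8% of all genes). The double mutants were lower than Clrn1-/- for 4 members (14.6% of all genes) and lower than Clrn2-/- for 2 (13.2% of all genes). Between the single mutants 1 member differed, Insig1, which is near the share of all genes (18.5% in either direction).

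Whether the double mutants differ from the sum of the single mutants was tested as the interaction between both genotypes. It passed for 1 of 7 members, which is near the 17.4% of all genes that passed in either direction. This member was Hmgcs1, with a log2 value of -0.28 (standard error 0.083, edgeR test, adjusted p = 0.0301). This call was lost, at an adjusted p (edgeR) of 0.0521 to 0.0657, when wild-type replicate 2, Clrn1-/- replicate 1, Clrn2-/- replicate 2, or replicate 2 or 3 of the double mutants was left out. Idi1 had a value of -0.25 (edgeR test, adjusted p = 0.0829) and Insig1 one of 0.22 (edgeR test, adjusted p = 0.0765), and neither passed. Insig1 passed without Clrn2-/- replicate 3 (edgeR test, adjusted p = 0.0103) and with no filter on low counts (edgeR test, adjusted p = 0.0412), and Idi1 without Clrn1-/- replicate 2 (edgeR test, adjusted p = 0.0394). For the other 4 members the interaction was between 0.02 and 0.09 on the log2 scale.

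Libraries of 1 genotype also differed from each other across the 7 genes. Wild-type replicate 1 was the highest wild-type library for 6 members and wild-type replicate 3 the lowest for 6. Clrn2-/- replicate 1 was the lowest of its genotype for 6 members, and every member was below its 12-library mean there. The double mutant libraries were below the mean of all libraries for 7 of 7 members in each of the 3. Without wild-type replicate 1, the log2 fold change of Hmgcs1 in the double mutants had an adjusted p (edgeR) of 2.08e-04 and that of Cyp51 one of 0.0139, so both still passed. In Clrn1-/- mice the call of Cyp51 was lost without wild-type replicate 1 (edgeR test, adjusted p = 0.166), without wild-type replicate 2 (edgeR test, adjusted p = 0.0504) and without any 1 of the Clrn1-/- libraries (edgeR test, adjusted p = 0.0644 to 0.0953). For Clrn2-/- the Sqle call did not hold without wild-type replicate 1 or 2 (edgeR test, adjusted p = 0.0927 and 0.0934) and without any 1 of the Clrn2-/- libraries (edgeR test, adjusted p = 0.0509 to 0.0691). The Lss call for Clrn2-/- did not hold without wild-type replicate 1 or 2 (edgeR test, adjusted p = 0.147 and 0.120), Clrn1-/- replicate 2 (edgeR test, adjusted p = 0.0590), Clrn2-/- replicate 1 or 2 (edgeR test, adjusted p = 0.160 and 0.0784) or any 1 of the double mutant libraries (edgeR test, adjusted p = 0.0530 to 0.0586). With library size alone in place of TMM, none of these 3 calls held (edgeR test, adjusted p = 0.136 for Cyp51, 0.0881 for Sqle and 0.0949 for Lss).

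Of the 16 other enzymes of the route, 0 were called at 1.5-fold in the double mutants, and by adjusted p alone 7 were lower and 1 higher, with a median log2 fold change of -0.14. The remaining genes of the lists were named after their values were seen, apart from Srebf1, Srebf2, Abca1, Scd1, Fads2 and Hsd3b7. Mvk and Pmvk, the kinases of mevalonate and its phosphate, had log2 fold changes of -0.32 and -0.23 in the double mutants, Dhcr7, the last reductase of the alternative route, -0.24, Acat2, the thiolase at its entry, -0.22, and Sc5d, a desaturase, -0.16. Hsd17b7, a ketoreductase of the later steps, went the other way, with 0.31 in the double mutants (edgeR test, adjusted p = 0.00248) and 0.24 in Clrn2-/- (edgeR test, adjusted p = 0.0321). In Clrn2-/- mice 2 of the 16 enzymes were higher and 1 lower, and in Clrn1-/- mice 1 was higher and 0 were lower.

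**Figure D3:**
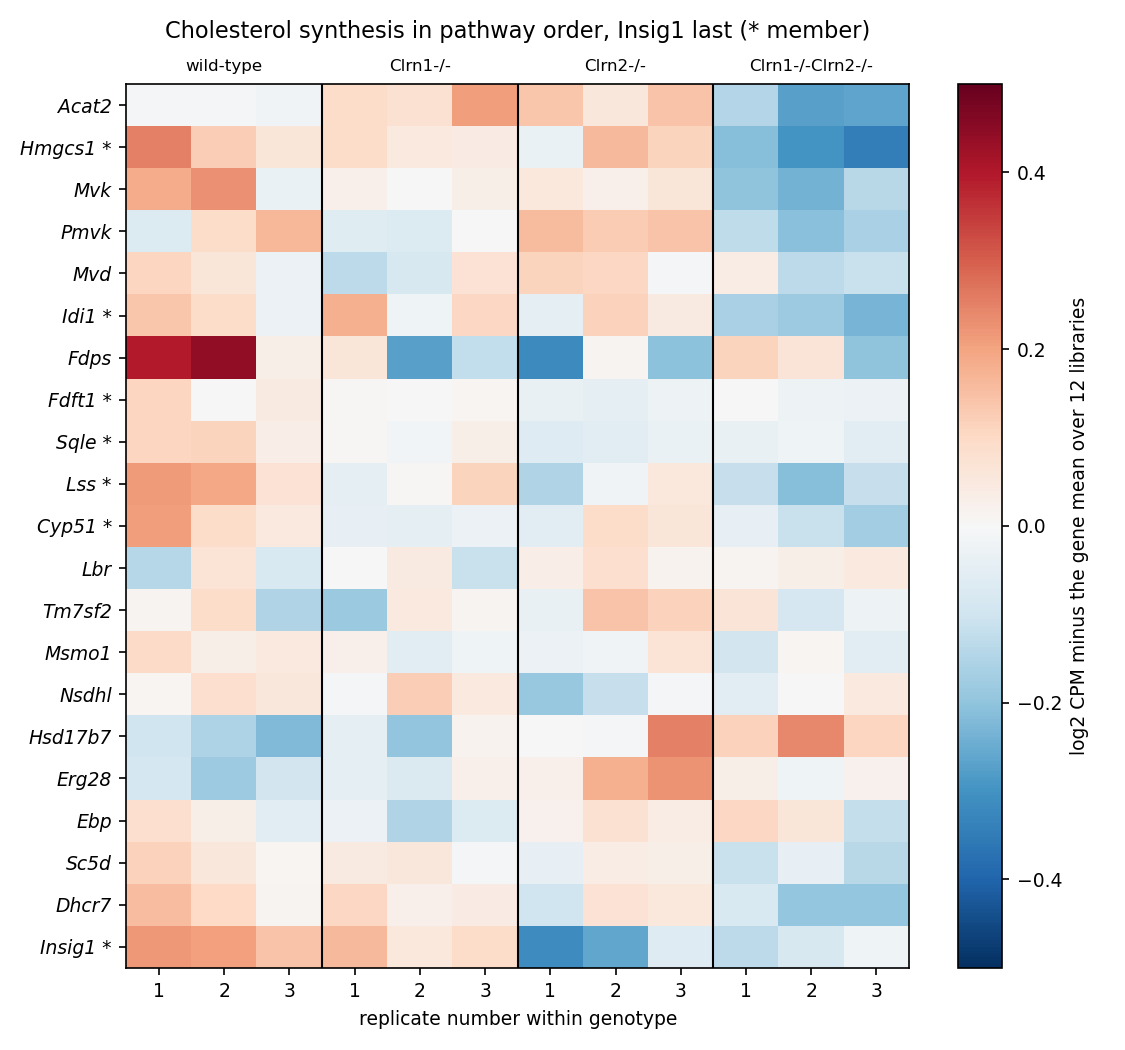
Log2 CPM of enzymes of cholesterol synthesis in pathway order and Insig1, each minus its own mean over the 12 libraries (columns; members marked with an asterisk). Blue in the 3 double mutant columns marks lower levels of Acat2, Hmgcs1, Mvk, Pmvk, Idi1, Lss, Sc5d and Dhcr7, while Hsd17b7 is red there.

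Among 6 genes of SREBP control, Srebf1 was over-expressed in the double mutants and 0 were under-expressed, with a list median of 0.09. By adjusted p alone, 13.6% of all genes were higher in Clrn1-/-, 7.14% in Clrn2-/- and 19.1% in the double mutants against wild-type, beside the shares of lower genes given above. Srebf1 encodes SREBP-1, which drives fatty acid synthesis and is itself a target of the oxysterol receptors LXR. Wild-type libraries held 180.2, 163 and 186 CPM and the double mutants 339, 366 and 369 CPM, with no overlap. Double mutants had a log2 fold change of 1.02 (standard error 0.066, edgeR test, adjusted p = 1.26e-08), and in Clrn1-/- it was 0.30 (edgeR test, adjusted p = 0.00315), under the fold minimum. Srebf2, which encodes SREBP-2, did not pass in double mutants (log2 fold change 0.09, edgeR test, adjusted p = 0.127), where libraries had 207 to 214 CPM against 187 to 209.9 CPM in wild-type. Insig2, a separate gene and paralog of Insig1, was higher in double mutants (log2 fold change 0.27, edgeR test, adjusted p = 1.85e-04) and in Clrn2-/- (0.15, edgeR test, adjusted p = 0.0334).

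Of 4 sterol uptake genes, 0 were called at 1.5-fold in the 3 mutants against wild-type, and the list median in the double mutants was -0.02. Stard4, a carrier of cholesterol between membranes, was higher in Clrn1-/- than in wild-type, with a log2 fold change of 0.23 (edgeR test, adjusted p = 0.0124). By adjusted p alone, 1 of the 4 was higher in Clrn1-/-, 1 was lower in Clrn2-/- and 1 was lower in the double mutants.

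The list of 9 LXR and cholesterol efflux genes had 4 higher and 2 lower genes in the double mutants by adjusted p alone, a median log2 fold change of 0.18, and 1 called gene, Abca1, which exports cholesterol to apolipoproteins and is an LXR target. Abca1 was at 63.7, 62.6 and 60.2 CPM in wild-type libraries, 115, 108 and 103 CPM in Clrn1-/-, 76.0, 79.2 and 83.2 CPM in Clrn2-/- and 122, 119.9 and 131 CPM in the double mutants. Every mutant library was above every wild-type library. Its log2 fold change was 0.81 in Clrn1-/- (edgeR test, adjusted p = 1.81e-08), 0.35 in Clrn2-/- (edgeR test, adjusted p = 2.46e-04) and 1.00 in the double mutants (edgeR test, adjusted p = 1.05e-09). Mylip, a ubiquitin ligase and LXR target, had a log2 fold change of 0.50 in the double mutants (edgeR test, adjusted p = 1.59e-05), Lpcat3 0.38 and Apoe 0.24. The lower genes were Nr1h2, which encodes an LXR (-0.19), and Abcg4 (-0.29).

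Fatty acid synthesis genes under SREBP-1 gave 2 over-expressed and 0 under-expressed genes of 11 in the double mutants, and 6 higher and 2 lower by adjusted p alone, with a median log2 fold change of 0.22. Scd1, a desaturase of fatty acids, was at 501, 466 and 495 CPM in wild-type and at 894, 919 and 906 CPM in double mutants (log2 fold change 0.89, edgeR test, adjusted p = 1.15e-08). Fads2, a desaturase of polyunsaturated fatty acids, had a log2 fold change of 0.78 (edgeR test, adjusted p = 2.24e-08), from 78.1, 81.9 and 68.7 CPM to 133, 133 and 126 CPM. Neither overlapped with wild-type in any mutant. In Clrn1-/- mice the log2 fold changes were 0.48 for Scd1 and 0.47 for Fads2, and in Clrn2-/- mice 0.30 and 0.17, each past the adjusted p and under the fold minimum. Acss2, which makes acetyl-CoA, and Elovl6, an elongase, were lower in double mutants (log2 fold changes -0.52 and -0.25).

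Of 11 genes of cholesterol handling and oxysterols, 2 were higher and 1 lower in the double mutants by adjusted p alone, with a median of 0.01. Hsd3b7, of bile acid synthesis, was the only one called, in Clrn1-/- mice, where its log2 fold change was -1.14 (edgeR test, adjusted p = 0.0152), at 0.233 to 0.416 CPM against 0.590 to 0.767 CPM in wild-type. Among 8 genes of the nonsterol isoprenoid branch, which leads from the same intermediates to dolichol, ubiquinone and prenylated proteins, 0 were called in the double mutants, and by adjusted p alone 1 was higher and 2 were lower, with a median of -0.02.

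**Figure D4:**
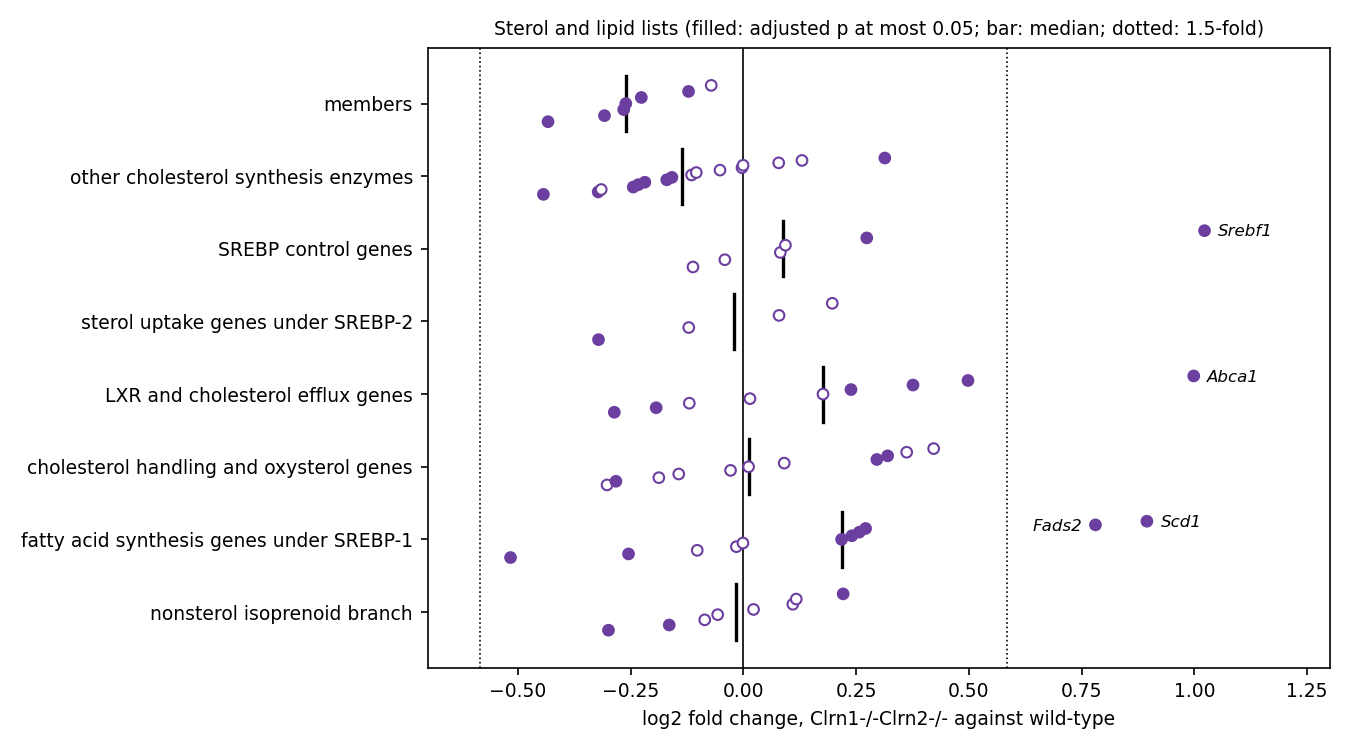
Log2 fold change of each gene in the double mutants against wild-type, by list; filled points passed an adjusted p of 0.05, bars are list medians and dotted lines mark 1.5-fold. The members lie left of 0, with a median of -0.26, while Srebf1, Abca1, Scd1 and Fads2 lie beyond 1.5-fold to the right.

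Some markers of other cell types also differed in these libraries. By adjusted p alone, 19.1% of all genes were higher and 17.9% lower in the double mutants against wild-type. In the double mutants, 8 of 11 neuron markers were lower and 2 higher by adjusted p alone (median log2 fold change -0.41), and their sum was 7694 to 7815 CPM against 11297 to 12372 CPM in wild-type, 10122 to 10581 CPM in Clrn1-/- and 9639 to 11147 CPM in Clrn2-/-. Macrophage markers were higher for 8 of 9 (median 0.67), summing to 218 to 257 CPM against 138 to 177 CPM in wild-type, 216 to 231 CPM in Clrn1-/- and 159 to 202 CPM in Clrn2-/-. Schwann cell myelin markers had 4 higher and 3 lower of 15 (median 0.04), with sums of 22427 to 24020 CPM in the double mutants and 23401 to 24642 CPM in wild-type. Every marker of these 3 lists had counts in every library. Their part in the lower levels of the 7 genes was not tested.

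For the remaining marker lists, the counts in the double mutants are by adjusted p alone as well, beside the same shares of all genes. Higher and lower were 6 and 2 of 12 hair cell markers, 8 and 1 of 10 supporting cell markers, 6 and 0 of 8 fibroblast markers, 1 and 0 of 6 endothelium markers and 2 and 0 of 4 tested bone markers. Lower were 5 of 5 red blood cell markers, 3 of 6 stria vascularis markers, 2 of 4 oligodendrocyte markers and 1 of 4 tested skeletal muscle markers, with 0 higher in each. Adipocyte markers summed to at most 0.384 CPM in any library and could not be tested. None of 5 sex-linked markers passed in any of the 7 comparisons by edgeR's adjusted p.

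Genes whose pattern over the 12 libraries was most like the mean of the members were ranked, and 9 of the first 10 are named. The ranking was by the root mean square difference of log2 CPM, each centred on its own mean, among the 12453 genes that averaged 5 CPM or more. Nearest was Fchsd2, with a difference of 0.035, followed by Dhx35 (0.039), Dhcr7 (0.040), Nfia (0.040), Dennd5a (0.044), Pdk1 (0.046), Gm14305 (0.047), Rfng (0.049) and Sc5d (0.050). Dhcr7 and Sc5d are enzymes of the same route. Of the members themselves, Lss ranked at 15 by this measure, Cyp51 at 24, Sqle at 27, Idi1 at 179 and Fdft1 at 204, whereas Hmgcs1 ranked at 1851 and Insig1 at 3117. Each member is part of the mean it was ranked against, so these ranks are no test of likeness.

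Several members share exon bases with a gene on the opposite strand. Hmgcs1 shares 557 exon bases with the antisense gene Gm48342, and the unstranded count of Hmgcs1 was 76.1% of the stranded one. In the stranded counts used here Gm48342 was at 0.056 to 0.285 CPM, and 0.197% of those on Hmgcs1 had the other orientation. Lss shares 381 exon bases with 4930483K19Rik, Idi1 323 with Gm48574 and Cyp51 166 with Akap9. With unstranded counts, 6 of 7 members were again lower in the double mutants by adjusted p alone, and the log2 fold changes of Hmgcs1 stayed within -0.45 to -0.39 over the 8 alternatives that kept all libraries.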

How the data were processed

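The authors aligned paired, stranded, poly-A selected reads with STAR and deposited counts per gene on the Gencode M24 annotation of GRCm38.p6; the STAR version is not given in the sources used here. The reverse-strand counts of the 12 deposited tables were used, which hold 95.2% to 95.6% of stranded counts on genes. The 4 summary lines that name no gene, 13.5% to 15.8% of a library, were left out. Coordinates and exon lengths came from Gencode M21 of GRCm38.

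Genes were kept by filterByExpr (minimum count 10), scaled by TMM and fitted over all 12 libraries with genotype as the only term in edgeR 4.0.16 (quasi-likelihood test, R 4.3.3), with limma 3.58.1 and DESeq2 1.42.0 as alternatives. Genes with an adjusted p of at most 0.05 and at least a 1.5-fold change were called over- or under-expressed; adjusted p alone was the other rule. The script was tested on simulated data. Likeness used a minimum mean of 5 CPM and a prior count of 2. Other alternatives were library size alone, no filter, an FPKM minimum of 0.1, unstranded counts, fits of only the genotypes compared, a replicate block and leaving out each library.

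Replicate numbers were checked for pairing: deviations from the group means correlated above 0.1 in 7 of 18 same-numbered pairs (-0.277 to 0.301 over 12453 genes). Wild-type and Clrn1-/- passed for all 3 numbers (0.269, 0.126 and 0.105). Members and gene lists were chosen with earlier results of these data known. Genes named by rule were every member, Srebf2, Clrn1 and Clrn2, and up to 3 genes per direction called in each pathway list against wild-type. Most, but not all, of the 10 genes of most similar pattern were named too, as were genes that share exon bases with a member. The other genes named from the pathway lists were not called and were named after their values were seen. Some genes of these lists are not reported here by name, though they count in the list totals.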

Additional observations from a re-analysis of the deposited data

Results flagged for a closer look

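The effect of losing both clarins differed from the sum of the single losses for 8 of the 40 tested genes that the text names, by the interaction in edgeR with Benjamini-Hochberg adjustment over 19052 genes. On the log2 scale the interaction was -0.28 for Hmgcs1 (edgeR adjusted p = 0.0301), 0.54 for Srebf1 (edgeR adjusted p = 9.18e-04) and 1.71 for Hsd3b7 (edgeR adjusted p = 0.0156), the last at under 1 CPM in every library. It was -0.48 for Acat2 (edgeR adjusted p = 3.86e-04), 0.50 for Lpcat3 (edgeR adjusted p = 0.00834), 0.31 for Nr1h2 (edgeR adjusted p = 0.00344), -0.34 for Abcg4 (edgeR adjusted p = 0.00153) and 1.38 for Clrn2 (edgeR adjusted p = 0.00752), which is itself mutated. Of all genes tested, 17.4% passed, and 8 of 40 is near that share. Some of the 40 genes were named after their values were seen.

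Counts on the opposite strand, which the main counts leave out, were above the wild-type level in every mutant library for Hmgcs1 and Fdft1. These are the members above it that had at least 10 such counts in every mutant library. Idi1 was above it too, with 1 to 5 counts in the mutant libraries. Of the 4557 genes tested with at least 10 such counts in every mutant library, 7.02% were likewise above. For Hmgcs1 the lowest mutant library had 0.713 CPM on that strand (24 counts) and the highest wild-type library 0.582 CPM (23 counts), so the separation rests on few counts. For Fdft1 the lowest mutant library had 33.3 CPM and the highest wild-type library 32.9 CPM. Ctsb, which overlaps Fdft1 on the opposite strand, was at 946 to 1020 CPM in wild-type and 1133 to 1332 CPM in the mutants. Its part in the Fdft1 counts was not tested.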

How the results depend on the processing

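Under the rule with no fold minimum the members called went from 0 to 1 in Clrn1-/-, 3 in Clrn2-/- and 6 in double mutants against wild-type, 1 between the single mutants, 4 and 2 in double mutants against Clrn1-/- and Clrn2-/-, and 1 for the interaction. These counts by adjusted p alone became 0 in Clrn1-/- and 1 in Clrn2-/- with library size alone, which shifted the median of all genes by 0.04 and 0.03 on the log2 scale, 1 in Clrn2-/- with only the genotypes compared, and 2 in Clrn2-/- and 2 for the interaction with no filter. Those of the double mutants against wild-type became 5 with library size alone and with no filter, without Sqle, and against Clrn2-/- 3 with DESeq2 and with no filter, with Cyp51. With the replicate block they remained at 1, 3, 6, 1, 4, 2 and 1 in the same order. With 1 library left out they ranged from 0 to 2, 1 to 3, 6 to 6, 1 to 1, 2 to 4, 1 to 3 and 0 to 2. The cause was not tested. The interaction needs all genotypes, so only the genotypes compared gave no value for it.

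Of the 16 other enzymes, those past the adjusted p in Clrn1-/- against wild-type were 1, or 2 with library size alone and 0 with no filter, the FPKM filter or only the genotypes compared. Between the single mutants they were 2, or 4 with the replicate block and 1 with the FPKM filter or only the genotypes compared, and for the interaction 2, or 5 with library size alone.

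Log2 values that reversed were small and not past the threshold. With library size alone Idi1 in Clrn2-/- was 0.0061 against wild-type, and the interactions of Lss and Cyp51 were -0.013 and -0.017. Leaving out 1 library gave -0.029 to 0.080 for Idi1 in Clrn1-/- and -0.075 to 0.019 in Clrn2-/- against wild-type. Between the single mutants the ranges were -0.086 to 0.023 for Hmgcs1, -0.0033 to 0.10 for Idi1 and -0.0024 to 0.11 for Lss. For double mutants against Clrn2-/- they were -0.0019 to 0.011 for Fdft1 and -0.0070 to 0.0077 for Sqle, and for the interaction -0.032 to 0.057 for Lss and -0.044 to 0.044 for Cyp51.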
